A study of Mus musculus with 6 samples.

Results

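The ectodysplasin pathway was represented in the deposited tables by 8 genes, Eda, Edar, Edaradd, Eda2r, Tnfrsf19, Traf6, Relb and Nfkbia, of 23420 gene symbols. They were selected by symbol, as the ligand, the receptors and the adaptors of the pathway with an NF-kB subunit and an NF-kB inhibitor. The list was drawn up with results of these data already known, including that of Edar, so the values of its members are a description and their adjusted p-values, taken from a fit over all genes, are not independent support. All 8 passed the filter on low counts, which left 13087 genes. RNA was sequenced from the E14.5 mouse lacrimal gland bud, dissected by laser capture, in 3 Control samples of genotype Le-Cre and 3 Pea3 TKO samples, which carry Le-cre with the alleles Pea3-/- and Ermfl/fl together with Er81fl/fl. Both groups carry the Le-Cre transgene, which expresses Cre recombinase in the epithelium of the conjunctiva and of the lacrimal gland, and both are on a mixed background. Pea3 (Etv4) is null in the whole Pea3 TKO embryo, while Erm (Etv5) and Er81 (Etv1), the related ETS factors, are removed only where Le-Cre acts. The paper names Le-Cre as the control of the RNA sequencing, and the titles of the 3 Control samples read WT. Its methods give both Le-Cre mice and heterozygotes with Le-Cre as controls for all experiments. Whether heterozygotes were among the Control samples is therefore not certain. Nothing in the labels says that the samples came from separate embryos, so the p-values measure the spread between these samples.

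Ectodysplasin (Eda) is a TNF family ligand that is cleaved from the cell surface and acts between neighbouring epithelial cells. It binds the receptor Edar, which recruits the adaptor Edaradd and, through Traf6 and the TAK1 and IKK kinases, releases NF-kB from its inhibitors. Loss of the ligand, the receptor or the adaptor causes hypohidrotic ectodermal dysplasia, in which hair, teeth and exocrine glands fail to form or are reduced. Alternative splicing of Eda gives the forms A1, which binds Edar, and A2, which binds Eda2r, and counts per gene cannot separate them.

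Within the pathway, RNA of the receptors Edar and Tnfrsf19 and that of the ligand moved in opposite directions. Edar and Tnfrsf19 were lower in every Pea3 TKO sample than in any Control sample, as was Traf6, whereas Eda was higher in every Pea3 TKO sample. By the edgeR quasi-likelihood test with adjustment over all genes at a threshold of 0.05, 3 of the 8 genes were called lower, 1 was called higher and 4 were not called. Over all genes tested, 11.3% were called lower, 13.6% higher and 25.0% in either direction. The groups did not overlap for 6 of the 8 genes, against 43.9% of all genes. Nothing is read from these counts, since the list was made with results known. The median log2 fold change of the 8 genes was -0.28 and that of all genes was 0.01.

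The promoters of 4 members are shown because they belong to the receptors with the lowest log2 fold change, the ligand that rose and a gene that was not called. RefSeq (GRCm38.p6) gave the 250 bases before and the 50 bases after the start for 7 of the 8 genes. Relb is named only. The windows are Edar at chr10:58675647-58675946 on the minus strand, the outer of the Tnfrsf19 starts at chr14:61046806-61047105 on the minus strand, Eda at chrX:99975356-99975655, on the plus strand, and Nfkbia at chr12:55492598-55492897 on the minus strand. Capitals mark every match to the letters CCGGAAGT, CAGGAAGT and GGAAGT, which contain the core bound by ETS factors, and to GGACTTTCC and GGAAATTCC, which are forms of the NF-kB site. All are written 5′ to 3′ along the gene.
Edar: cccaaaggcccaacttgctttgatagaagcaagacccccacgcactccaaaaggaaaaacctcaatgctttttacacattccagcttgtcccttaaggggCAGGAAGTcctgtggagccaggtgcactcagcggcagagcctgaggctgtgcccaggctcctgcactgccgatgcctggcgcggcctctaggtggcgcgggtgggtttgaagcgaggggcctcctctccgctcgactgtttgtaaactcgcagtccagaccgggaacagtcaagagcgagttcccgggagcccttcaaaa
Tnfrsf19: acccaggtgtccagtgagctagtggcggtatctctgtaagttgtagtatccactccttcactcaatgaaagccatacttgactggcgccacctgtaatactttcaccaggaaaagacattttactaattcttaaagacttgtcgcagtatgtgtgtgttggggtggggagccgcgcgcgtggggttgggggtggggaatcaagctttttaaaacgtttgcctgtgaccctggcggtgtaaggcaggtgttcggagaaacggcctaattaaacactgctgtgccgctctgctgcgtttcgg
Eda: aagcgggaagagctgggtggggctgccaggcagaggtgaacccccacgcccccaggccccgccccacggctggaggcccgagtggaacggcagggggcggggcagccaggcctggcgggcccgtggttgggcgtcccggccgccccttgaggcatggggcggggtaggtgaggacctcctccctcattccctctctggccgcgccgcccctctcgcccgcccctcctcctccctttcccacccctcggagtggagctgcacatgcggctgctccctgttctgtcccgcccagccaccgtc
Nfkbia: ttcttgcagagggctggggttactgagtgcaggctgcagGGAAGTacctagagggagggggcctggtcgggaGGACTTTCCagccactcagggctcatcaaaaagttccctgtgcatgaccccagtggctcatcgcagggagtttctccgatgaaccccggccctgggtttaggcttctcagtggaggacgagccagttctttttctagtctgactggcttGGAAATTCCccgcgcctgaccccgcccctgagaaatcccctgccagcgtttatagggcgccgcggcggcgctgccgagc

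The Edar window held CAGGAAGT, starting 150 bases before the start, and within it the shorter GGAAGT. The Nfkbia window held GGAAGT 211 bases, GGACTTTCC 178 bases and GGAAATTCC 29 bases before the start. None of the 5 motifs, searched on both strands, lay in the windows of Eda, Tnfrsf19 (both starts), Edaradd, Eda2r or Traf6. Of all 32851 promoter windows of this length, 3.89% held CCGGAAGT, 3.33% held CAGGAAGT, 23.77% held GGAAGT, 0.34% held GGACTTTCC and 0.32% held GGAAATTCC. The motifs were chosen after the Edar window had been seen. A match describes letters in the window, and binding was not measured here.

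Expression is given as CPM, the usual count of reads of a gene scaled to the size of its library after TMM, with samples named by group and replicate number. Eda, the ligand (X:99975606-100400762, plus strand, GRCm38), was at 7.55, 6.54 and 2.99 CPM in Control 1, 2 and 3 and at 18.7, 25.5 and 17.5 CPM in Pea3 TKO 1, 2 and 3. The lowest Pea3 TKO sample was above the highest Control sample, and the means were 5.70 ± 2.40 and 20.5 ± 4.29 CPM (SD, n = 3 each). The log2 fold change was 1.85 with a standard error of 0.36 and a 95% interval from 1.05 to 2.64, with an edgeR adjusted p of 0.0058. The call was lost in the fits that allow for the Y-linked genes of the samples, with values of 1.61 and 1.63. The counts behind these values were low, from 46 to 134 reads per Control sample and from 294 to 364 per Pea3 TKO sample.

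Edar, the receptor of the A1 form (10:58600789-58675654, minus strand), was at 53.4, 63.1 and 83.6 CPM in Control 1, 2 and 3 and at 11.0, 8.32 and 9.16 CPM in Pea3 TKO 1, 2 and 3. All 3 Pea3 TKO samples lay close together and far below the Control samples. Its log2 fold change was -2.81 with a standard error of 0.22 (edgeR adjusted p = 4.7e-05). Its value under the 15 alternative fits ran from -2.95 to -2.62, and the gene was called in each of them.

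Tnfrsf19 (Troy), an orphan receptor of the TNF receptor family that is related to Edar in sequence (14:60963875-61046490, minus strand), showed the same direction at a higher level. It was at 199.9, 218 and 318 CPM in Control 1, 2 and 3 and at 47.4, 51.5 and 56.5 CPM in Pea3 TKO 1, 2 and 3. The groups were far apart, with a log2 fold change of -2.24 and a standard error of 0.18 (edgeR adjusted p = 6.6e-05). It was called in all 15 alternatives, with values from -2.37 to -2.02.

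Eda2r, the receptor of the A2 form (X:97333840-97377216, minus strand), did not pass the test. It was at 6.48, 6.48 and 6.89 CPM in Control 1, 2 and 3, which were nearly equal, and at 7.49, 12.7 and 18.8 CPM in Pea3 TKO 1, 2 and 3, which were spread over a wide range. The groups did not overlap, and the log2 fold change was 0.97 with a standard error of 0.36 and a 95% interval from 0.18 to 1.77 (edgeR adjusted p = 0.073). The gene was called by DESeq2 (0.98, adjusted p = 0.048) and by edgeR without Pea3 TKO 1 (1.25, adjusted p = 0.026). Without Pea3 TKO 3, the highest sample, the edgeR value was 0.61 (adjusted p = 0.28), and in the fits that allow for Y-linked genes it was 1.51 (covariate, adjusted p = 0.075) and 1.52 (Y-expressing samples only, adjusted p = 0.058).

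**Figure D1:**
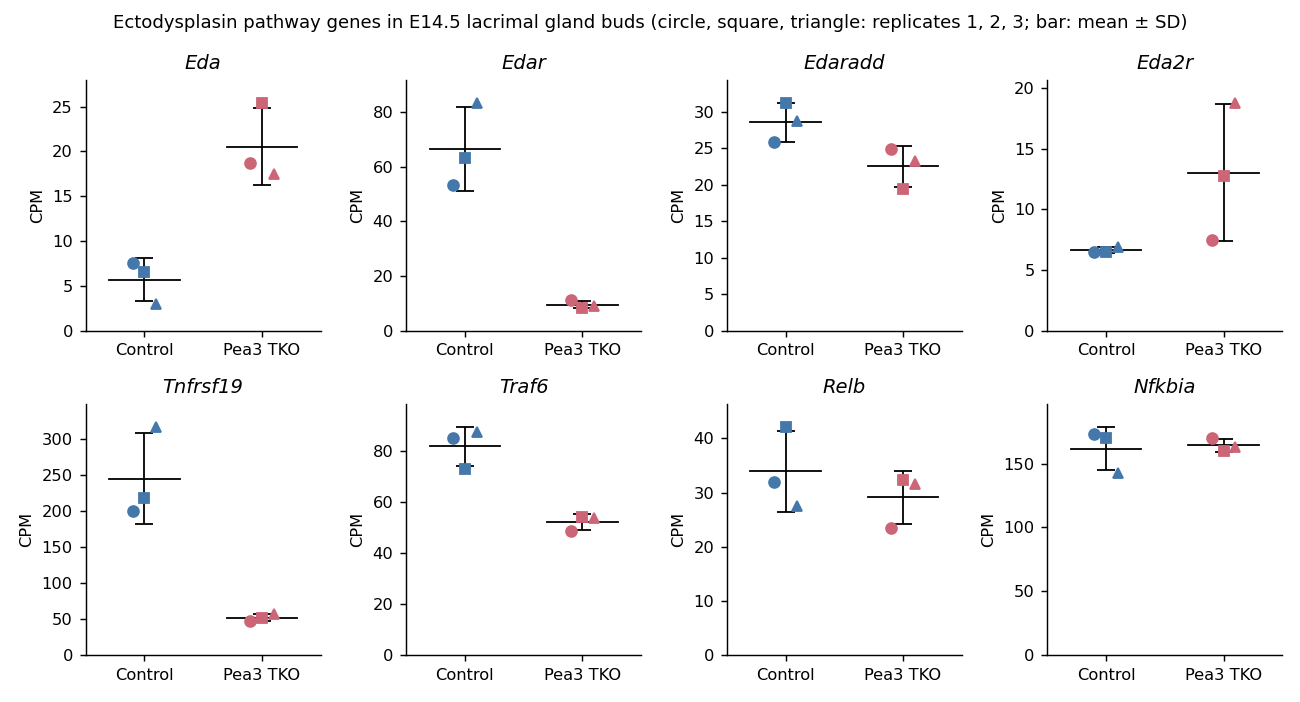
CPM of the 8 pathway genes in each sample, with a linear axis from 0 in each panel. Circles, squares and triangles are replicates 1, 2 and 3, and bars are the mean ± SD of 3 samples. The Control and Pea3 TKO points of Edar, Tnfrsf19, Traf6 and Eda are clearly apart. Those of Edaradd are separate by a narrow margin, and those of Relb and Nfkbia overlap. For Eda2r, Pea3 TKO 1 is just above the Control points, and Pea3 TKO 2 and 3 lie higher.

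The adaptor that binds Edar did not pass the test. Edaradd, which links the death domain of Edar to the signalling complex (13:12472632-12520438, minus strand), was at 25.8, 31.2 and 28.8 CPM in Control 1, 2 and 3 and at 25.0, 19.4 and 23.3 CPM in Pea3 TKO 1, 2 and 3. The groups did not overlap, by a narrow margin. The log2 fold change was -0.34 with a 95% interval from -0.76 to 0.08 and an edgeR adjusted p of 0.21, and the gene was not called under any alternative.

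Traf6, a ubiquitin ligase shared by Edar and many other receptors (2:101678429-101701669, plus strand), was at 85.1, 73.1 and 87.5 CPM in Control 1, 2 and 3 and at 48.6, 54.2 and 53.7 CPM in Pea3 TKO 1, 2 and 3. Every Pea3 TKO sample was below every Control sample. The log2 fold change was -0.65 with a standard error of 0.13 (edgeR adjusted p = 0.0075). In edgeR fits that allow for the Y-linked genes of the samples, by a covariate or by using Y-expressing samples only, it was -0.61 (adjusted p = 0.13) and -0.60 (adjusted p = 0.14), and the call was lost.

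The NF-kB members of the list overlapped between the groups. Relb, a subunit of the alternative NF-kB branch (7:19606217-19629438, minus strand), was at 32.0, 42.1 and 27.6 CPM in Control 1, 2 and 3 and at 23.4, 32.3 and 31.5 CPM in Pea3 TKO 1, 2 and 3, with a log2 fold change of -0.22, a 95% interval from -0.70 to 0.25 and an edgeR adjusted p of 0.49. Nfkbia, the inhibitor IkB-alpha and itself a well known NF-kB target (12:55489410-55492647, minus strand), was at 173, 170.2 and 142 CPM in Control 1, 2 and 3 and at 170.0, 160.3 and 163 CPM in Pea3 TKO 1, 2 and 3. Its log2 fold change was 0.02 with a 95% interval from -0.24 to 0.28 (edgeR adjusted p = 0.91).

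**Figure D2:**
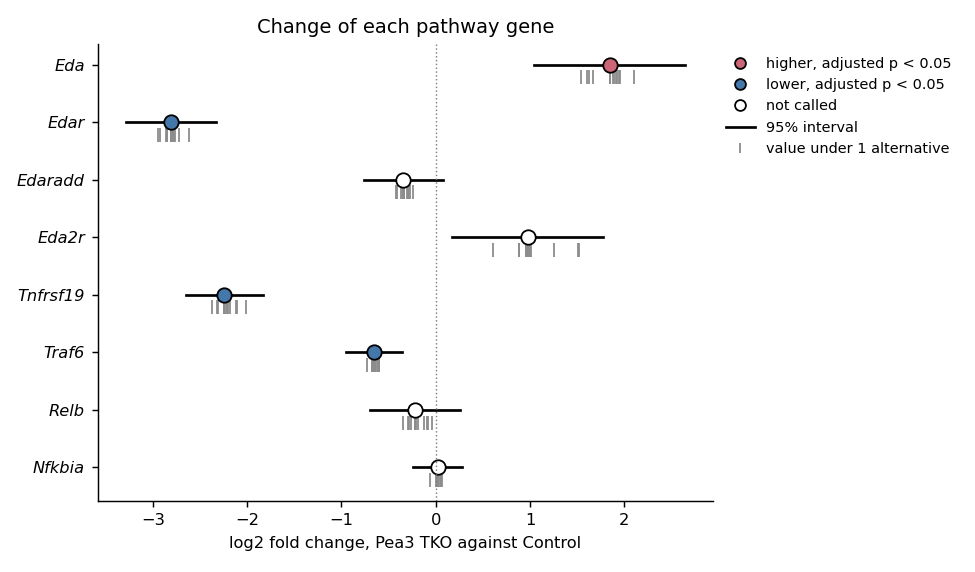
Log2 fold change of each pathway gene, Pea3 TKO against Control, with filled points for genes called by edgeR, open points for the rest and lines for the 95% interval. Grey ticks under each line are the 15 alternative fits. Those of Edar (-2.95 to -2.62) and Tnfrsf19 (-2.37 to -2.02) stay far below 0, those of Eda far above it (1.54 to 2.10), and those of Nfkbia lie on both sides of 0.

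Levels were compared between genes as CPM per kb of exon (GENCODE M21), which allows for gene length under that annotation. The annotation used for the counting is not given, so levels of different genes are compared only roughly. In Control samples the order of the mean levels was Nfkbia at 101, Tnfrsf19 at 51.8, Edar at 18.3, Traf6 at 10.4, Relb at 8.72, Edaradd at 4.29, Eda2r at 1.12 and Eda at 0.835 CPM per kb. Traf6 and Relb overlapped in their samples, as did Eda2r and Eda, and all other neighbours were separate. In Pea3 TKO samples the order was Nfkbia at 102, Tnfrsf19 at 10.9, Relb at 7.49, Traf6 at 6.62, Edaradd at 3.38, Eda at 3.01, Edar at 2.62 and Eda2r at 2.21 CPM per kb. Here Relb and Traf6 overlapped, and each neighbouring pair from Edaradd down to Eda2r overlapped. Edar moved from rank 3 of the 8 genes to a level that its samples shared with Eda, and also with Eda2r.

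The ratio of Edar to Eda per exon length was 13.3, 18.1 and 52.4 in Control 1, 2 and 3 and 1.11, 0.613 and 0.982 in Pea3 TKO 1, 2 and 3. By this measure receptor RNA exceeded ligand RNA in every Control sample, and the ratio was near 1 in the Pea3 TKO samples. In CPM, without exon length, Edar was at 11.0, 8.32 and 9.16 in Pea3 TKO 1, 2 and 3. This was below Eda, at 18.7, 25.5 and 17.5 CPM in the same samples. The further ratios are also per exon length. The ratio of Edar to its adaptor Edaradd was 3.79, 3.71 and 5.32 in Control 1, 2 and 3 and 0.812, 0.785 and 0.722 in Pea3 TKO 1, 2 and 3. The ratio of Eda2r to Edar was 0.0749, 0.0634 and 0.0509 in Control 1, 2 and 3 and 0.419, 0.944 and 1.27 in Pea3 TKO 1, 2 and 3. Tnfrsf19 stayed above Edar in all samples, at 2.87, 2.66 and 2.92 times its level in Control 1, 2 and 3 and at 3.30, 4.75 and 4.73 times in Pea3 TKO 1, 2 and 3. The ratios were described without a test, because both genes of each ratio are members that were chosen with results known.

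**Figure D3:**
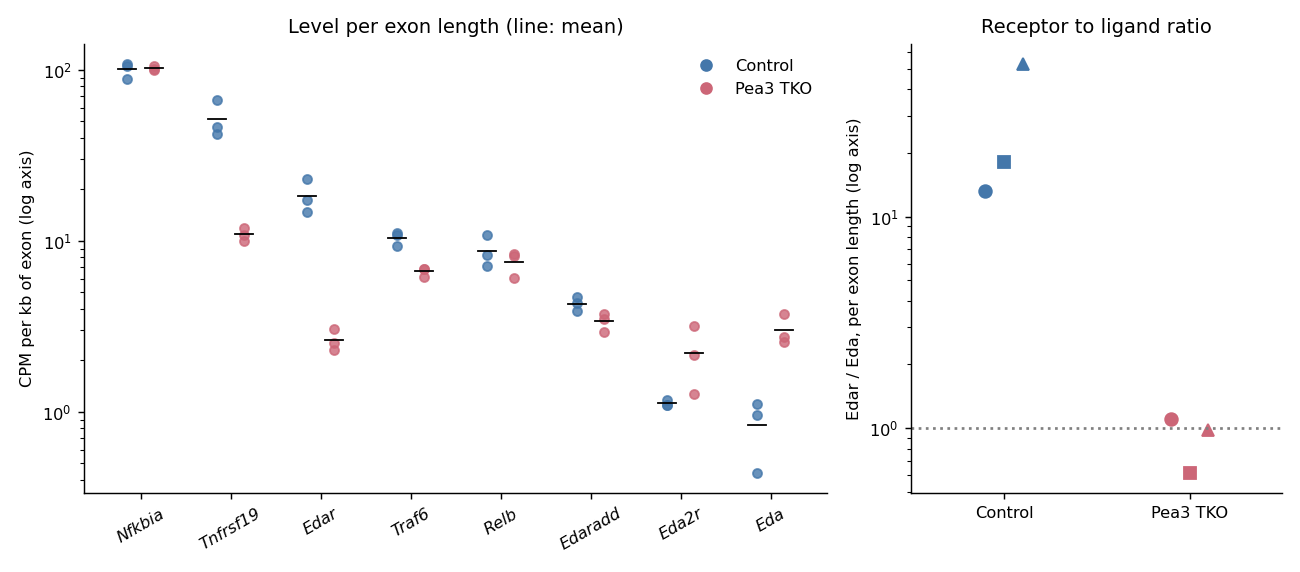
Left, CPM per kb of exon of the 8 genes on a log axis, ordered by the Control mean, with 1 point per sample and a line at the mean. Right, the ratio of Edar to Eda per exon length in each sample on a log axis, with a dotted line at 1, where Control samples run from 13.3 to 52.4 and Pea3 TKO samples from 0.613 to 1.11.

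The targeted genes served as a check of the labels. In every Pea3 TKO sample Etv4, Etv5 and Etv1 were below all Control samples, with log2 fold changes of -2.95, -2.93 and -1.74. Their RNA was still counted in Pea3 TKO samples, at 10.9 to 28.4 CPM (Etv4), 88.2 to 177 CPM (Etv5) and 9.21 to 9.98 CPM (Etv1). Total counts were 14194775 to 17860140 per sample, at which 3 counts correspond to 0.169 to 0.210 CPM. Cells of a type that become fewer and cells that hold less of an RNA cannot be told apart in these bulk samples. Epithelial markers were present throughout, with a summed level of 3139 to 3910 CPM in Control and 5438 to 6467 CPM in Pea3 TKO. Of these 8 markers 6 were called higher and none lower, beside 13.6% called higher over all genes. Of 6 lacrimal gland bud markers 4 were called lower and 2 higher, beside 11.3% lower and 13.6% higher over all genes. Their sum was 1534 to 1730 CPM in Control and 1162 to 1307 CPM in Pea3 TKO.

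Other marker lists stand beside every result above, and the mesenchymal list did not separate the groups. Markers of stratified ocular surface and epidermis, such as the basal keratin Krt5, were called higher for 7 of 8, beside 13.6% over all genes. Their sum ran from 561 to 1630 CPM in Control and from 5318 to 7526 CPM in Pea3 TKO. Mesenchymal markers summed to 19.4, 24.5 and 118 CPM in Control 1, 2 and 3. In Pea3 TKO 1, 2 and 3 they summed to 404, 567 and 14.2 CPM. Of 10 tested, 2 were called higher and none lower, beside the same 13.6% called higher over all genes. Fgf10, on this list, did not pass the filter on low counts. It had 4, 1 and 17 counts in Control 1, 2 and 3 and 0 in every Pea3 TKO sample. Pea3 TKO 3, with the lowest mesenchymal sum, had Eda at 17.5 CPM and Edar at 9.16 CPM, close to the other Pea3 TKO samples, and the highest Eda2r level. The parts of the surface markers and of the mesenchymal markers in these differences were not tested.

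Eda and Eda2r are X-linked, and the sex of the embryos was not balanced. Y-linked genes summed to 136 to 175 CPM in the Control samples and to 139 CPM in Pea3 TKO 3, but to 0.445 and 0.210 CPM in Pea3 TKO 1 and 2, and Xist, the RNA of the inactive X, had 1675 and 465 counts in Pea3 TKO 1 and 2 and at most 7 elsewhere. Pea3 TKO 3, which expressed Y-linked genes as the Control samples did, had 17.5 CPM of Eda against at most 7.55 CPM in Control. With Y-linked expression as a covariate in edgeR the log2 fold change of Eda was 1.61 (adjusted p = 0.093) and that of Traf6 was -0.61 (adjusted p = 0.13). With the Y-expressing samples alone, which leave 1 Pea3 TKO sample whose spread is taken from the Control samples, edgeR gave 1.63 for Eda (adjusted p = 0.14) and -0.60 for Traf6 (adjusted p = 0.14). The fit without these terms gave 1.85 for Eda and -0.65 for Traf6, and both calls were lost with the covariate. Only Pea3 TKO samples lacked Y-linked expression, so the parts of sex and condition in these values cannot be told apart. Edar and Tnfrsf19 were called in both fits.

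**Figure D4:**
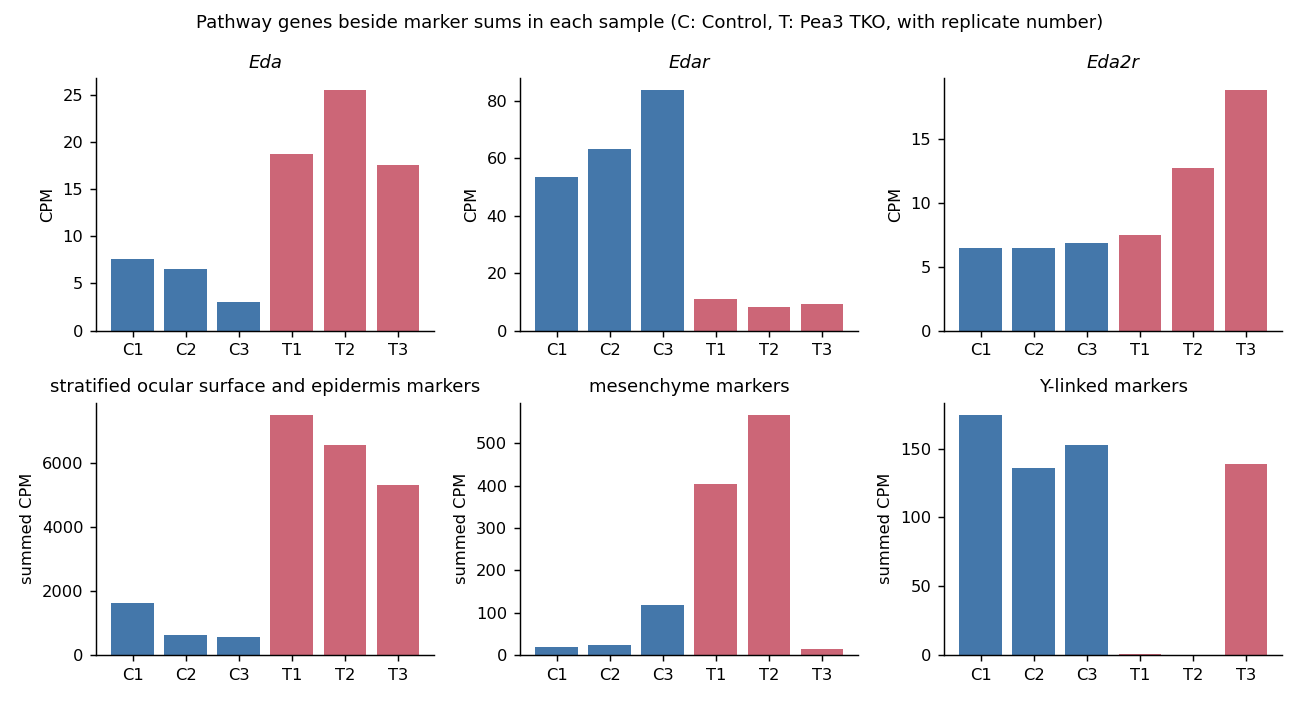
Bars from 0 for each of the 6 samples (C for Control, T for Pea3 TKO, with the replicate number), showing CPM of Eda, Edar and Eda2r and the summed CPM of 3 marker lists. Eda and Edar separate the groups in all samples. The mesenchymal sum is high in T1 and T2 and the Y-linked sum is near 0 in the same samples, while the surface marker sum is high in T1, T2 and T3.

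Below the receptor, 14 genes of signal transduction were followed, namely the TAK1 and IKK complexes, other TRAF adaptors, the deubiquitinase Cyld and Furin, the protease that cleaves Eda. By edgeR 2 of 14 were called higher, 3 lower and 9 not, and the median log2 fold change was 0.04. Over all genes 13.6% were called higher and 11.3% lower. Traf1, an adaptor without ligase activity, was at 0.780 to 1.75 CPM in Control and 3.75 to 8.05 CPM in Pea3 TKO (2.42). Ikbkg (NEMO), the regulatory subunit of IKK, was at 42.2 to 48.7 and 54.2 to 77.3 CPM (0.63). Lower were Traf3, a brake on alternative NF-kB signalling (-1.0), Traf4 (-0.71) and Map3k7, the kinase TAK1 (-0.42), each below Control in all 3 Pea3 TKO samples. Cyld (0.09) and Furin (0.14) were not called, with edgeR adjusted p of 0.81 and 0.51. The count of 5 called genes fell to 3 without Control 3, without Pea3 TKO 1 or without Pea3 TKO 2. With Y-linked expression as a covariate it fell to 1, beside 778 of all 13087 genes.

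None of 11 further NF-kB subunits and inhibitors was called by edgeR, beside 25.0% called over all genes. An unadjusted p under 0.05 was found for 4, against 4943 of all 13087 genes tested. The groups did not overlap for 4, against 43.9% of all genes. DESeq2 called 1 and limma voom 0, and edgeR called 2 without Control 1 and 1 without Pea3 TKO 1. The median log2 fold change was 0.09. Rela, the main activating subunit, was at 153, 108 and 94.3 CPM in Control 1, 2 and 3 and at 153, 161 and 172 CPM in Pea3 TKO 1, 2 and 3, so that Control 1 reached the Pea3 TKO range (0.45, edgeR adjusted p = 0.083). Nfkb1 was at -0.14 and Nfkb2 at 0.37, with edgeR adjusted p of 0.72 and 0.093.

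Genes known from skin appendage placodes to respond to ectodysplasin or to act beside it moved in both directions. Of the 17 genes found, 13 were tested, 6 were called higher, 2 lower and 5 not, with a median of 0.47, beside 25.0% called over all genes. Fgf20, an FGF ligand known as a target of Eda in hair and tooth placodes, had 56, 61 and 69 counts in Control 1, 2 and 3 and 0, 0 and 5 in Pea3 TKO 1, 2 and 3. Ctgf, a secreted matrix protein, was also lower, at 28.1 to 41.3 CPM in Control and 6.11 to 11.7 CPM in Pea3 TKO (log2 fold change -1.89). The chemokines went the other way. Cxcl10 had 1 to 7 counts per Control sample and 128 to 297 per Pea3 TKO sample (5.66), and Cx3cl1 was at 23.4 to 38.7 and 108 to 145 CPM (2.06).

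Among the other genes called higher were Wnt10a, a Wnt ligand whose own loss causes ectodermal dysplasia, at 9.82 to 26.4 CPM in Control and 59.4 to 104 CPM in Pea3 TKO (2.40), and Sostdc1 (ectodin), an inhibitor of BMP and Wnt signals, at 25.4 to 33.9 and 70.2 to 131 CPM (1.78). Shh, a target of Eda in hair placodes, had 0 counts in every sample, which allows at most 0.169 to 0.210 CPM. From 6 to 8 genes of this list were called under each of the 15 alternatives, which include the covariate for Y-linked genes.

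Of 10 regulators known around Eda or Edar expression in placodes, 7 were tested, 2 were called higher and none lower, with a median of 1.16, beside 13.6% called higher over all genes. Inhba, which encodes the activin A subunit known to induce Edar in tooth germs, had 0 to 7 counts per Control sample and 54 to 64 per Pea3 TKO sample (4.27). Lef1, the Wnt effector known to act on the Eda promoter, had 2 to 15 counts per Control sample and 27 to 82 per Pea3 TKO sample (2.79, edgeR adjusted p = 0.040). Both genes were thus at a low level. Trp63 (p63), the regulator of stratified epithelium, was at 155 to 221 CPM in Control and 127 to 244 CPM in Pea3 TKO (-0.04, edgeR adjusted p = 0.92). The count of 2 became 1 without Control 3, Pea3 TKO 1 or Pea3 TKO 2 and 4 without Control 1. With Y-linked expression as a covariate it was 0, beside 778 of all 13087 genes.

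Of 25 other receptors of the TNF receptor family 16 were tested, 5 were called higher and 1 lower, with a median of 0.64, beside 13.6% called higher and 11.3% lower over all genes. Tnfrsf12a, the receptor of TWEAK, was at 15.5 to 24.6 CPM in Control and 43.6 to 63.6 CPM in Pea3 TKO (1.49). Tnfrsf18 (1.32) and Ltbr, the lymphotoxin beta receptor (1.09), were also higher in every Pea3 TKO sample. Tnfrsf23 had 0, 7 and 0 counts in Control 1, 2 and 3 and 50, 44 and 71 in Pea3 TKO 1, 2 and 3. Tnfrsf22 and Tnfrsf26 are related genes, and whether reads were shared among the genes was not tested. Tnfrsf21 (death receptor 6) was the member called lower, at 64.3 to 112 CPM in Control and 38.7 to 50.2 CPM in Pea3 TKO (-0.95). With Y-linked expression as a covariate 1 of the 16 was called, beside 778 of all 13087 genes.

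Of 17 other TNF ligands 6 were tested, 3 were called higher and none lower, with a median of 0.28, beside 13.6% called higher over all genes. Tnfsf15 had 0 counts in all Control samples and 64, 29 and 28 in Pea3 TKO 1, 2 and 3, at least 14-fold higher when each Control sample is set at 3 counts. The median was the same with this gene at its bound. Ltb (lymphotoxin beta), also on the placode list, was at 12 to 15.8 CPM in Control and 32.8 to 62.6 CPM in Pea3 TKO (1.69). Tnfsf10 (TRAIL) was at 6.36 to 11.4 and 17.3 to 19.9 CPM (1.07). Leaving out Control 2, Control 3, Pea3 TKO 2 or Pea3 TKO 3 gave 2 calls, and the Y-expressing samples alone gave 1.

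**Figure D5:**
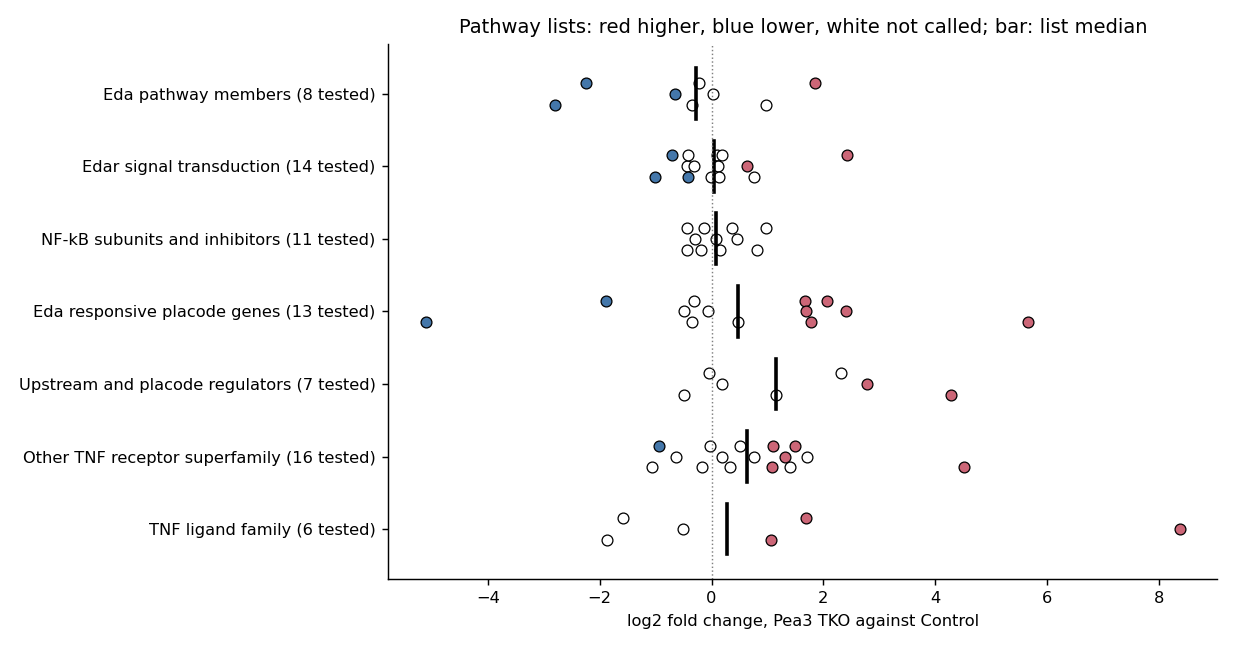
Log2 fold change of every tested gene in the 8 pathway genes and the 6 further lists, 1 point per gene, with red for called higher, blue for called lower, white for not called and a bar at the list median. The medians run from -0.28 for the 8 pathway genes to 1.16 for the placode regulators. The rightmost point is Tnfsf15, whose fitted value depends on the prior count because Control is at 0.

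The genes most like the members in pattern were ranked by the root mean square difference of log2(CPM + 1), each gene centred on its mean over the 6 samples, among 13086 genes. Nearest to Edar were Trpm3 (0.126), Adamts14 (0.138), 2810011L19Rik (0.144), Ucma (0.156) and Hlf (0.163). The added 1 compresses changes at low levels. Ucma was at 3.33, 4.24 and 6.44 CPM in Control 1, 2 and 3 and at 0 in every Pea3 TKO sample. Trpm3, a cation channel gene, was at 73.8, 79.6 and 106 CPM in Control 1, 2 and 3 and at 17.6, 12.9 and 14.8 CPM in Pea3 TKO 1, 2 and 3, close to the course of Edar at a similar level. Nearest to Eda were Hist2h2be (0.136), Gm13032 (0.155), Tstd3 (0.161), Xkr4 (0.180) and Mycn (0.185). Mycn, a MYC family transcription factor gene, was at 7.61, 8.35 and 4.62 CPM in Control 1, 2 and 3 and at 18.7, 27.7 and 17.6 CPM in Pea3 TKO 1, 2 and 3.

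Nearest to Eda2r were Nhej1 (0.126), Tdrkh (0.180), Pcx (0.192), Snai3 (0.194) and Sp4 (0.20). The genes nearest to Edaradd were Tmed9 (0.042), Arhgef17 (0.042), BC022687 (0.048), Cox7c (0.052) and Snrpd3 (0.055). The smaller distances for Edaradd go with its small range over the samples.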

How the data were processed

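The authors deposited 1 table of raw read counts per gene symbol for each of 6 samples, without normalization. Per the labels, RNA of the laser-captured buds was amplified with the Nugen Ovation system and poly-A libraries were made with a TruSeq kit. The submitters' processing notes name bcl2fastq 2.17, STAR 2.5.2b, featureCounts 1.5.0-p3, DESeq and the build mm10. The annotation and the strand setting of the counting are not given in the sources used here.

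From the deposited counts, genes were filtered by filterByExpr, scaled by TMM and tested with the quasi-likelihood test of edgeR 4.0.16 (limma 3.58.1, R 4.3.3), with a term for condition alone and Benjamini-Hochberg adjusted p-values over all tested genes at 0.05. Each standard error is the size of the log2 fold change over the square root of the F statistic, and 95% intervals use the t distribution of the fit. The script was tested on simulated counts, in which every recovered change had the right sign and the share of false genes among those called was above the nominal rate. No libraries within a group were duplicates, with chi-square per degree of freedom of at least 15.5. Groups follow the sample labels.

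The members and lists were chosen with earlier results of these data known. Named were all 8 members, Etv1, Etv4 and Etv5, from each other list up to 4 called genes per direction with the largest change, a few fixed genes (Cyld, Furin, Rela, Nfkb1, Nfkb2, Lef1, Trp63 and Shh), and the 5 nearest patterns of 4 members. Krt5, Xist and Fgf10 were named after their values were seen. Marker lists for endothelium, muscle, immune cells, neural crest and red blood cells had no called gene. Only 1, 0, 4, 4 and 1 genes of these lists were tested. Alternatives were other size factors, DESeq2 1.42.0, limma voom, other filters, a replicate block, a Y-linked covariate and leaving out each sample. Exonic lengths come from GENCODE M21 (GRCm38), in which no member shared exonic bases with another gene, and promoters come from RefSeq (GRCm38.p6).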

Additional observations from a re-analysis of the deposited data

How the results depend on the processing

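Edar and Tnfrsf19 were called lower under all 15 alternatives, and 14 of these were planned. The fit on Y-expressing samples only (3 Control samples and Pea3 TKO 3) was chosen after seeing the data. The count of genes called was 3268 in the fit reported here, 778 with the Y-linked covariate, 597 with Y-expressing samples only and 1948 to 3344 when 1 sample was left out. The count of members called higher was 2 by DESeq2, 0 with the covariate, 0 with Y-expressing samples only and 1 to 2 on leaving out 1 sample. For signal transduction the 5 calls became 1 with the covariate, 0 with Y-expressing samples only and 3 to 5 on leaving out 1 sample. For NF-kB genes the 0 calls became 1 by DESeq2 and 0 to 2 on leaving out 1 sample. For placode regulators the 2 calls became 4 by DESeq2, 1 by limma voom, 0 with the covariate, 0 with Y-expressing samples only and 1 to 4 on leaving out 1 sample. For other TNF receptors the 6 calls became 1 with the covariate and 1 with Y-expressing samples only, and for TNF ligands the 3 became 1 with the latter. The log2 fold change of Nfkbia ran from -0.0637 to 0.0719 on leaving out 1 sample, and was below 0 without Control 3 and without Pea3 TKO 1 (-0.001). Fits with fewer samples or 1 more term have fewer residual degrees of freedom, and other causes of these moves were not tested. With a replicate block 3191 genes were called, and no call among the members changed. Deviations of samples that share a number correlated at 0.14, -0.06 and 0.05, against a mean of -0.02 for different numbers, so the numbers were not taken to pair samples. For genes with few reads, such as Lef1 and Fgf20, depth limits the precision of the fold change.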
